A study of Mus musculus with 12 samples.

Results

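The 44 genes described here were grouped as the constitutive proteasome. All but Psmc3ip encode its subunits, the tissue-restricted subunits Psma8 and Psmb11, or proteins that assemble, cap or inhibit the proteasome. The 44 were picked by a rule on symbols, set with earlier results of these data known. It took symbols that begin with Psm, 1 letter from a to g and a number, which matched 49 of 22609 in the count tables. The 5 genes of the immunoproteasome and its interferon-inducible cap (Psmb8, Psmb9, Psmb10, Psme1 and Psme2) were left out, which gave the 44. Sorted by role, 16 encode the core particle, 17 the regulatory particle, and 11 neither. The study asked how TRIM21, an E3 ubiquitin ligase of the cytosol that also binds antibodies, bears on the acute response of the liver to diethylnitrosamine (DEN), a carcinogen that hepatocytes activate to a DNA-alkylating agent. Whole livers came from male C57BL/6 mice aged 8 weeks, labelled WT or TRIM21 KO, 48 h after a single 200 mg/kg intraperitoneal injection of DEN in PBS or of PBS. Total RNA depleted of ribosomal RNA gave 12 libraries: 3 PBS wild-type (PBSWT_541, PBSWT_542 and PBSWT_545), 3 PBS knockout (PBSKO_154, PBSKO_544 and PBSKO_549), 3 DEN wild-type (DENWT_307, DENWT_995 and DENWT_996), 2 DEN knockout (DENKO_141 and DENKO_309) and 1 DEN library labelled heterozygous, TRIM21+/- (DENHET_136). The labels name neither the allele nor littermates, and whether each library came from its own animal is not stated, so a p-value here reflects only the spread among these libraries.

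The proteasome is the main protease of the cytosol and nucleus and degrades proteins tagged with ubiquitin. Its core particle is a barrel of stacked rings of alpha subunits (Psma genes), which gate the entrance, and beta subunits (Psmb genes), of which Psmb5, Psmb6 and Psmb7 hold the active sites. The regulatory particle sits on the barrel's ends: a base with ubiquitin receptors and a ring of ATPases (Psmc genes) binds and unfolds the substrate, and a lid built of Psmd proteins removes its ubiquitin. When proteasome capacity falls short, the transcription factor NRF1 (gene Nfe2l1) is released by the protease DDI2 and raises the transcription of the subunit genes through antioxidant response elements. NRF2 (gene Nfe2l2) acts through the same elements in oxidative and electrophilic stress. The liver depends on both factors.

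Gene counts totalled 17303124 to 23059252 per library. In wild type, Trim21 counts were 104, 127 and 93 under PBS and 166, 113 and 225 under DEN. The knockout libraries held 3, 5 and 5 counts under PBS and 3 and 3 under DEN. The library labelled heterozygous held 7 Trim21 counts, at the level of the knockouts, which goes against its label. It is called the library labelled heterozygous throughout and enters no fit, and its values are given on their own. The hepatocyte markers were abundant in every library, at summed levels of 97060.9 to 162924 CPM (counts per 1e6 gene counts). The globin genes Hbb-b1, Hba-a1 and Hba-a2 were at 0 in every library, while Alas2, of the same red cell list, was at 15.9 to 205 CPM. The reason for the globin zeros was not tested, and they do not show that blood was absent. Levels are CPM scaled by TMM, a method that sets most genes to no change on average. Its scaling factors were 0.858 to 0.901 in the PBS libraries and 1.13 to 1.30 in the DEN libraries. Values of a group are listed below in the order of the libraries given above.

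Of the 44 members, 43 passed the filter on low counts that left 13255 genes. Psmb11, the beta subunit of the thymus, did not, with 0 counts in 10 libraries, 3 in DENWT_996 and 1 in DENHET_136. Psma8, the alpha subunit of the testis, passed with 8 to 31 counts per library. Psmc3ip, which matches by symbol but encodes a recombination cofactor and no proteasome subunit, passed with 1 to 42 counts and reached its higher counts under DEN. Psma3 was the lowest of the housekeeping core genes, at 75 to 209 counts.

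Per kilobase of exon, the core genes of the PBS wild-type livers ran from 1.81 CPM per kb for Psma3 to 213 for Psmb6, with a median of 78.1 over 14 genes (all but Psma8 and Psmb11). The regulatory genes were spread less widely, from 12.4 CPM per kb for Psmd11 to 89.7 for Psmc4, with a median of 50.8. Exon lengths come from a later build (GRCm38) than the one the reads were aligned to, and several low values lay in genes that share sequence with pseudogenes. The share of a gene's 50-base stretches that another gene also holds was 57.1% for Psmb5, 55.8% for Psmb3, 54.5% for Psma5, 25.6% for Psma4 and 22% for Psma3. In the regulatory particle it passed 10% for Psmd2 at 26.4%, Psmc1 at 17.6% and Psmd11 at 14%. Reads from such stretches can be lost or split, so the levels of these genes are uncertain.

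RefSeq promoter windows, from 250 bases before to 50 bases after the start of transcription in GRCm38.p6, were found for 36 of the 44 members. They were searched on both strands for TGACNNNGC, the core of the antioxidant response element. It occurred in 6 of 38 member promoters (15.8%), against 12.4% of all 32851 promoters. By particle it occurred in 2 of 13 core promoters (15.4%), 2 of 15 regulatory promoters (13.3%) and 2 of 10 promoters of the other members (20%). None of the 6 immunoproteasome promoters held it. Windows are printed for the 3 genes whose motif lay at least 15 bases from either end of the 250 bases before the start. They are 1 gene from the core, 1 from the regulatory particle and 1 assembly chaperone. All 3 rose in DEN-treated wild-type liver, as did Psmd12, whose match is not printed. Psmb6 and Psme4, which also held a match, did not pass the test of DEN against PBS. Of all members tested 53.5% rose, beside 29.2% of all tested genes. Whether the motif goes with the rise was not tested. Capitals mark the motif, and all windows are written 5′ to 3′ on the strand of the gene.
Psmb5, chr14:54618019-54618057, minus strand: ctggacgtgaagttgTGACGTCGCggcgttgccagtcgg
Psmc6, chr14:45329582-45329620, plus strand: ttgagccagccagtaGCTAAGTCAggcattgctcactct
Psmd9, chr5:123228144-123228182, plus strand: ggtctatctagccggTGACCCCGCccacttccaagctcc
The motif lies 47 bases before the start of Psmb5, 31 before that of Psmd9 and, on the opposite strand, 227 before that of Psmc6. Psmb6, Psmd12 and Psme4 held the other matches. A match describes the letters of these windows and not a bound site.

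In wild-type liver most regulatory particle genes and few core genes rose with DEN; the difference between the particles was not itself tested. Of the 17 regulatory genes 13 rose and none fell (76.5%), where 29.2% of all tested genes rose and 26.7% fell. Of the 15 core genes tested 3 rose and 1 fell (20% and 6.67%). The median log2 fold change was 0.46 over the regulatory genes, 0.24 over the core genes and 0.04 over all tested genes. Among the 43 members tested, 23 rose, 2 fell and 18 did not pass an adjusted p of 0.05 in edgeR's quasi-likelihood test with Benjamini-Hochberg adjustment over all genes; 55.8% of all tested genes passed.

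**Figure D1:**
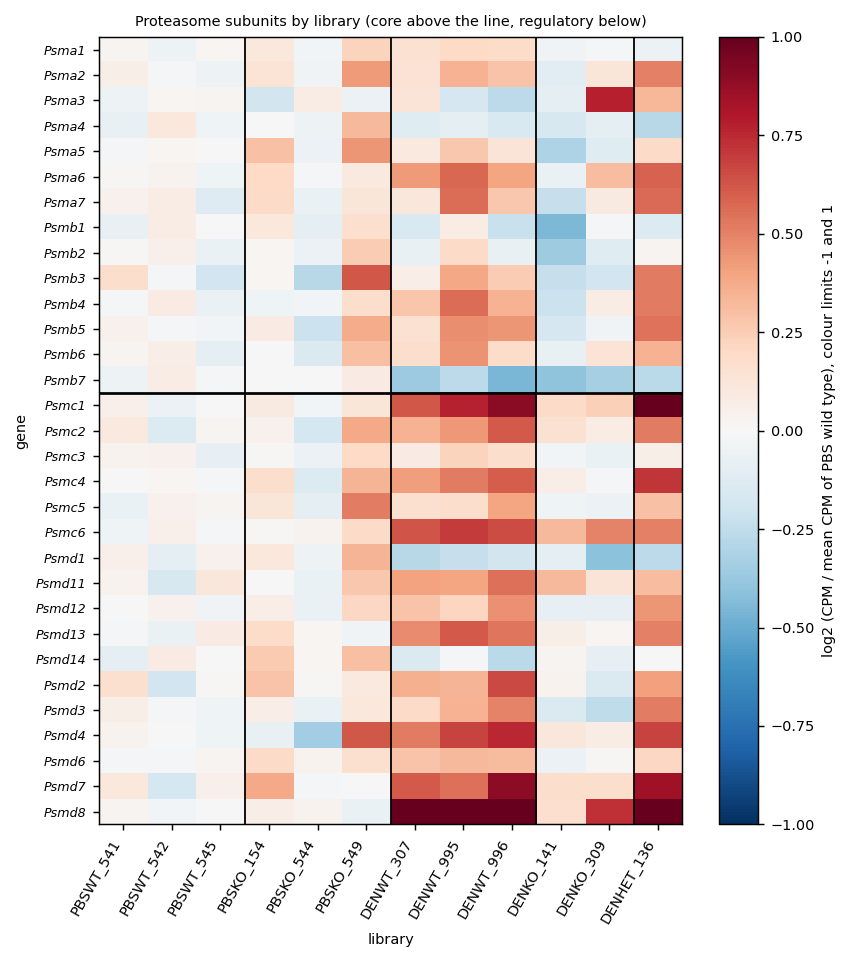
Level of each core (above the line) and regulatory (below) gene in each library, as the log2 ratio of its CPM to the mean of the 3 PBS wild-type libraries; colours are limited at -1 and 1, columns are grouped by treatment and genotype, and Psma8 and Psmb11 are left out for their low counts. The DEN wild-type columns are red over most of the lower block, with Psmd8 beyond the colour limit in all 3, while Psmb7 is blue in all DEN columns.

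Psmd8, a lid subunit next to the base, rose most among the regulatory genes. Its level was 161, 155 and 157 CPM in the PBS wild-type livers and 326, 401 and 376 CPM in the DEN wild-type livers. The groups lay far apart, and Psmd8 rose by 1.22 ± 0.15 on the log2 scale (estimate ± SE, as throughout; adjusted p = 2.2e-05). Psmc1, an ATPase of the base that helps open the gate of the core, was at 83.5, 77.8 and 81.2 CPM under PBS and 124, 138 and 151 CPM under DEN. All 3 DEN livers stood above all 3 PBS livers, by 0.77 ± 0.11 on the log2 scale (adjusted p = 7.5e-05). Psmd7, the lid partner of the deubiquitinase, was at 81.4, 66.8 and 78.5 CPM under PBS and 116, 110.4 and 140.8 CPM under DEN. It rose by 0.69 ± 0.14 (adjusted p = 0.0011) with no overlap between the groups.

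The rise covered both base and lid. Of the 6 base ATPases 4 rose: Psmc1, Psmc6 (0.66 ± 0.11), Psmc4 (0.52 ± 0.13) and Psmc2 (0.47 ± 0.15), while Psmc5 (0.25 ± 0.15, adjusted p = 0.17) and Psmc3 (0.16 ± 0.12, adjusted p = 0.26) did not pass. Among the 3 other base proteins whose genes match the symbol rule, the ubiquitin receptor Psmd4 rose by 0.65 ± 0.19 and the scaffold Psmd2 by 0.46 ± 0.14. The other scaffold, Psmd1, had a log2 fold change of -0.23 ± 0.13 (adjusted p = 0.15). Of the 8 lid genes that match the symbol rule 7 rose. They ran from Psmd6 (0.31 ± 0.10) and Psmd12 (0.32 ± 0.11) through Psmd3 (0.35 ± 0.12), Psmd11 (0.45 ± 0.12) and Psmd13 (0.54 ± 0.11) to Psmd7 and Psmd8. The eighth was Psmd14, the deubiquitinase that clips ubiquitin chains from the substrate. It was at 52.4, 59.2 and 55.8 CPM under PBS and 50.6, 55.1 and 46.4 CPM under DEN, so the groups overlapped (-0.14 ± 0.12, adjusted p = 0.32). Thus the lid's enzyme and the scaffold Psmd1 had values below 0 where the other 15 regulatory genes had values above 0.

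When each of the 11 libraries was left out in turn, 8 of the 13 regulatory calls held in every fit: Psmc1, Psmc4, Psmc6, Psmd4, Psmd7, Psmd8, Psmd11 and Psmd13. Psmc2 and Psmd2 were lost without DENWT_996 or PBSWT_542 (highest adjusted p 0.065 and 0.066). Psmd3 was lost without DENWT_996, PBSWT_542 or PBSWT_545 (0.073), and Psmd6 without PBSWT_541 or PBSWT_542 (0.058). Psmd12 was lost without DENWT_996 or any 1 of the 3 PBS wild-type libraries (0.093). The fold changes of these 5 genes stayed above 0 in every such fit. Over all members, 15 were called without PBSWT_542, all of them higher, of which 14 were among the 25.

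**Figure D2:**
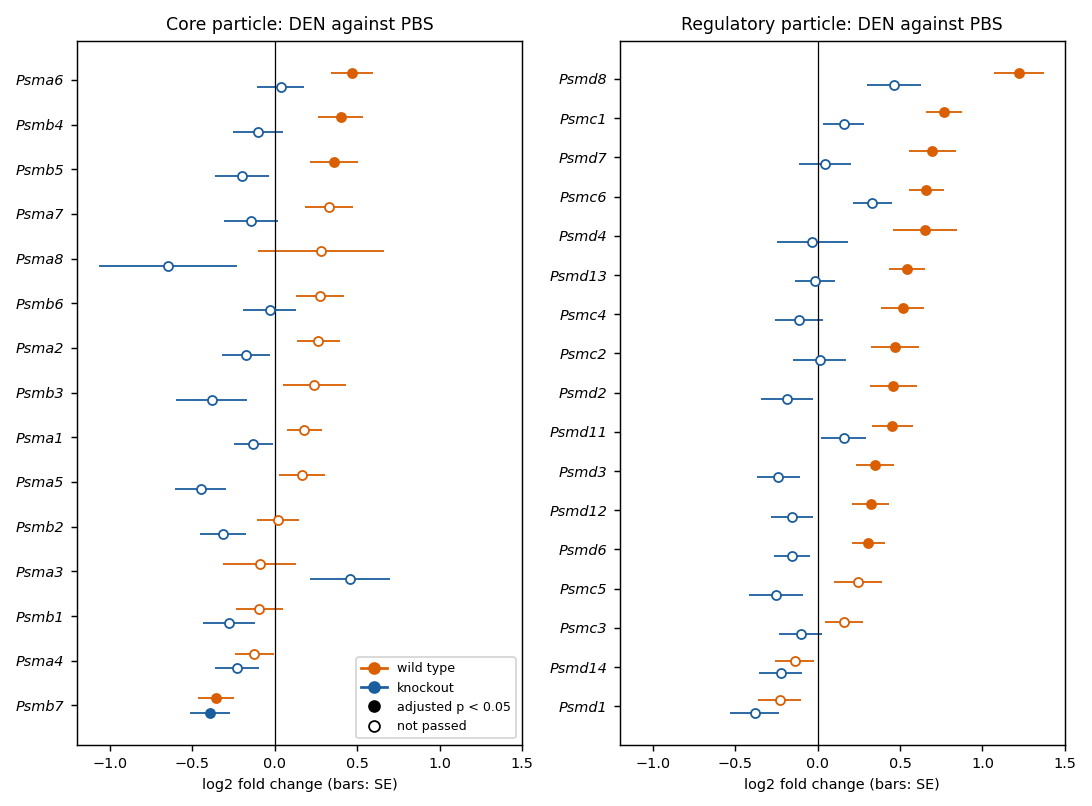
Log2 fold change of each tested core gene (left) and regulatory gene (right) for DEN against PBS, in wild type (orange) and knockout (blue); bars are SE and filled points passed an adjusted p of 0.05. In wild type 13 regulatory points are filled, led by Psmd8 at 1.22, whereas in the knockout the single filled point of both panels is Psmb7.

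In the core particle the response to DEN was smaller and mixed. Psma6, an alpha-ring subunit, rose from 135, 137 and 129.8 CPM to 179, 199.6 and 176 CPM, by 0.47 ± 0.13 on the log2 scale (adjusted p = 0.0072). Psmb4, a structural beta subunit that joins late in assembly, was at 222, 237 and 214 CPM under PBS and 272, 331 and 286 CPM under DEN (0.40 ± 0.14, adjusted p = 0.022). Neither gene's groups overlapped. Psma6 passed in every fit with 1 library left out, whereas Psmb4 was lost without DENWT_995, PBSWT_541 or PBSWT_545 (highest adjusted p 0.088). The other 6 housekeeping alpha genes ran from -0.13 for Psma4 to 0.33 for Psma7 and did not pass, and neither did the structural beta genes Psmb1, Psmb2 and Psmb3 (-0.09, 0.02 and 0.24) or the testis gene Psma8 (0.28).

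The 3 active-site genes did not move together. Psmb5, which carries the chymotrypsin-like activity, was at 37.7, 36.2 and 36.0 CPM under PBS and 40.7, 50.6 and 49.8 CPM under DEN. It rose by 0.36 ± 0.14 (adjusted p = 0.047), but the call was lost in 8 of the 11 fits with 1 library left out (without DENKO_141, DENKO_309, DENWT_995, DENWT_996, PBSKO_154, PBSWT_541, PBSWT_542 or PBSWT_545, highest adjusted p 0.129) and under RLE scaling, DESeq2 and limma-voom. More than 1 in 2 of its 50-base stretches are shared with a pseudogene. Psmb6, with the caspase-like activity, was at 173, 178 and 159 CPM under PBS and 192, 232 and 193 CPM under DEN, and its change of 0.28 ± 0.14 did not pass (adjusted p = 0.12). Psmb7, with the trypsin-like activity, went the other way, from 138, 150.3 and 140.9 CPM to 111, 119.7 and 104 CPM. It fell by 0.36 ± 0.11 on the log2 scale (adjusted p = 0.012), a call that was lost without PBSWT_542 (adjusted p = 0.056) and whose sign was positive, at 0.12, when libraries were scaled by total gene counts.

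**Figure D3:**
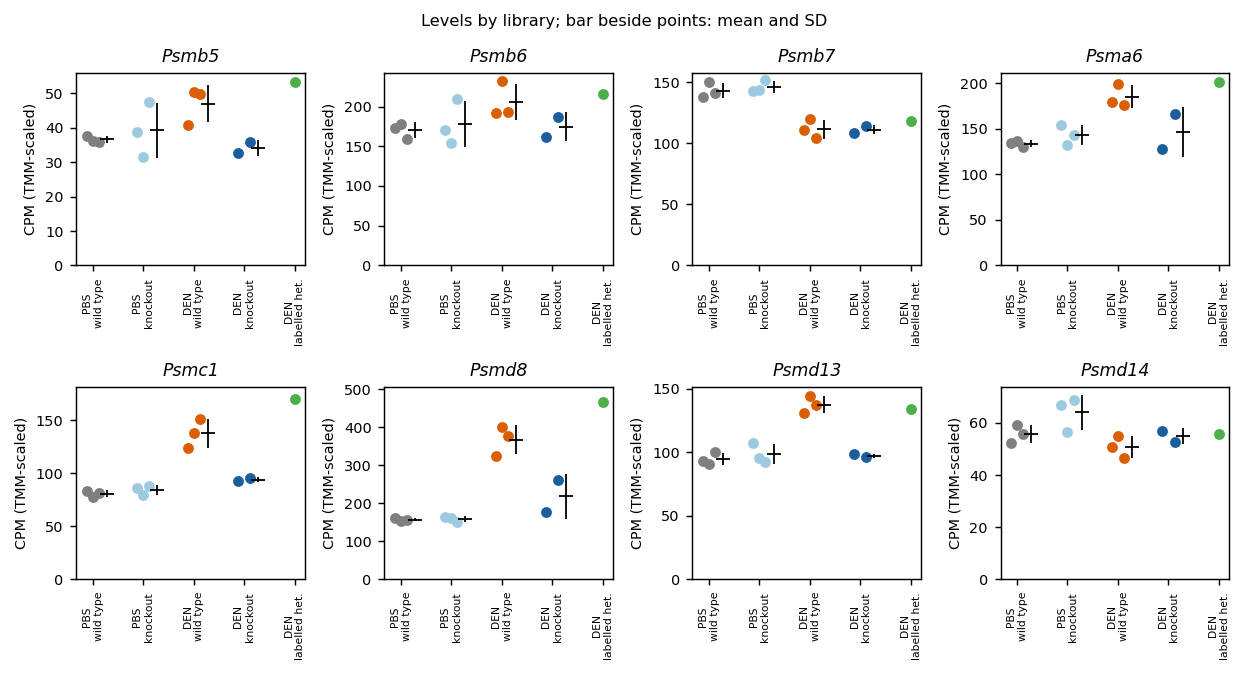
TMM-scaled CPM of 4 core genes (upper row) and 4 regulatory genes (lower row) by library, 1 point per library, with the mean and SD of each group of 2 or 3 libraries drawn beside it; the library labelled heterozygous stands alone. The DEN wild-type points lie above the PBS points for Psmc1, Psmd8 and Psmd13 and below them for Psmb7, and the DEN knockout points lie below the DEN wild-type points for Psmc1, Psmd8 and Psmd13.

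The sizes of these changes depend on the scaling between DEN and PBS libraries. By total gene counts alone, the median over all tested genes was 0.53 in wild type in place of 0.04, and the medians of core and regulatory genes were 0.73 and 0.95. Under that scaling, which also moved the median of all tested genes to 0.53, 36 members were called higher and 0 lower. The share of all tested genes called under it is not given here, so these calls cannot be set against a background. The order, with regulatory genes above core genes and core genes above all genes, was the same under TMM, RLE, upper quartile and total-count scaling. A ratio within a library does not depend on scaling. The summed level per kb of the regulatory genes over that of the core genes was 0.776, 0.727 and 0.802 in the PBS wild-type livers and 0.938, 0.856 and 1.04 in the DEN wild-type livers, without overlap. Without Psmd8, an omission chosen after its values were seen, the ratios were 0.716, 0.671 and 0.740 under PBS and 0.823, 0.737 and 0.908 under DEN, so that DENWT_995 fell among the PBS livers.

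**Figure D4:**
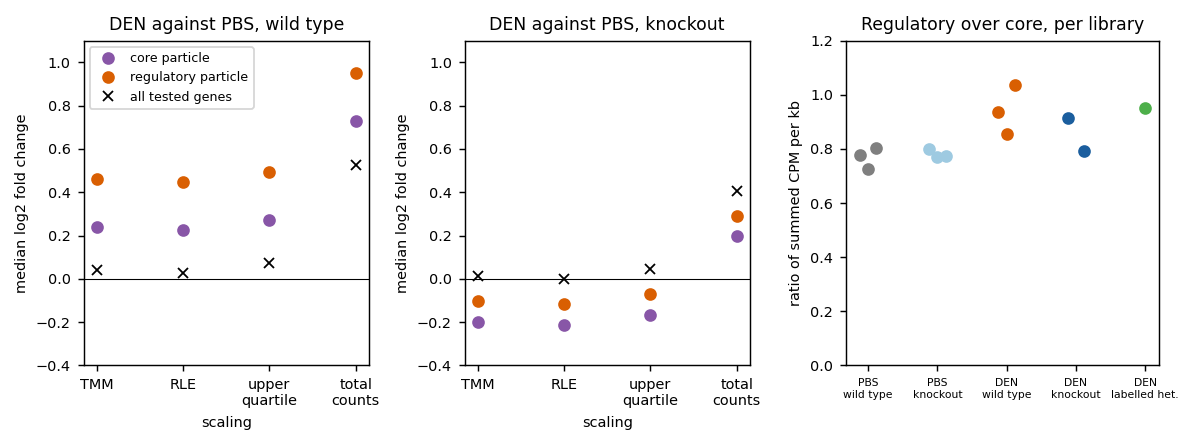
Left and middle, median log2 fold change for DEN against PBS over core genes, regulatory genes and all tested genes (crosses) under 4 scalings, in wild type and knockout; right, ratio of summed CPM per kb of regulatory over core genes in each library. In wild type both particles sit above the crosses under every scaling, in the knockout both sit below them, and the 3 DEN wild-type ratios (0.856 to 1.04) exceed the 6 PBS ratios.

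Markers of other cell types moved with DEN as well. The summed level of neutrophil and monocyte markers was 2.41 to 3.25 CPM in PBS wild-type and 33.4 to 92.1 CPM in DEN wild-type livers, with 6 of 7 tested markers higher. Lymphocyte markers summed to 7.03 to 11.6 CPM and 1.81 to 2.34 CPM, with 6 of 9 lower. Hepatocyte markers summed to 141925 to 156548 CPM and 97060.9 to 131891 CPM, with 5 of 8 lower. Of the remaining lists, 2 of 8 Kupffer and macrophage markers rose and 4 fell, 3 of 7 sinusoidal endothelial markers rose and 1 fell, 3 of 7 stellate and fibroblast markers rose and 2 fell, 1 of 5 bile duct markers rose, and the 1 red cell marker tested fell. In whole liver, fewer cells of a type and less RNA per cell cannot be told apart, and the part of these shifts in the proteasome values was not tested.

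Among the 11 members outside both particles, 7 rose and 1 fell in wild type (63.6% and 9.09%, beside 29.2% and 26.7% of all tested genes). All 3 chaperones that assemble the base rose: Psmd9 by 0.79 ± 0.14 (adjusted p = 0.0003), Psmd10, also known as gankyrin, by 0.50 ± 0.17 (adjusted p = 0.02) and Psmd5 by 0.36 ± 0.13 (adjusted p = 0.026). Psmd9 was at 57.7, 49.1 and 45.9 CPM under PBS and 75.6, 101 and 87.6 CPM under DEN, and its call held in every fit with 1 library left out. Psmd10 was lost without DENWT_995 or PBSWT_541 (highest adjusted p 0.061) and Psmd5 without DENWT_996, PBSWT_541 or PBSWT_542 (0.108).

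The chaperones of the core, Psmg1 to Psmg4, had no common direction. Psmg4 was at 9.09, 7.48 and 7.37 CPM under PBS and 11.3, 14.4 and 10.2 CPM under DEN, a rise of 0.58 ± 0.23 (adjusted p = 0.045) that was lost without DENWT_307, DENWT_995, PBSWT_542 or PBSWT_545 (highest adjusted p 0.159) and under RLE scaling and limma-voom. Psmg1 was at 24.1, 26.3 and 28.6 CPM and 22.2, 21.4 and 19.3 CPM. It fell by 0.33 ± 0.11 (adjusted p = 0.024), a call lost without DENWT_996, PBSWT_542 or PBSWT_545 (0.097), and its sign was positive, at 0.15, by total gene counts. Psmg2 (0.28 ± 0.14) and Psmg3 (-0.33 ± 0.14) did not pass.

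The alternative caps differed. Psme3, the nuclear cap that opens the core without ATP or ubiquitin, was at 74.996, 65.8 and 71.0 CPM under PBS and 87.9, 81.2 and 112 CPM under DEN (0.41 ± 0.13, adjusted p = 0.017), a rise lost without DENWT_996 or PBSWT_542 (highest adjusted p 0.082). Psme4, the large cap linked to chromatin and acetylated histones, was at 146, 129 and 155 CPM and 129, 126 and 119.5 CPM and did not pass (-0.20 ± 0.13, adjusted p = 0.21). Psmf1, which encodes the inhibitor and assembly factor PI31, was at 56.3, 57.9 and 51.4 CPM under PBS and 68.9, 75.2 and 92.1 CPM under DEN. It rose by 0.51 ± 0.15 (adjusted p = 0.0097) with no overlap, and the call held in every fit with 1 library left out. Psmc3ip, the recombination cofactor, had 4, 3 and 1 counts under PBS and 27, 7 and 42 under DEN (2.59 ± 0.63, adjusted p = 0.0034).

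In knockout liver few members passed the test for DEN against PBS. None of the 17 regulatory genes did, and 1 of 15 core genes fell, beside 12% of all tested genes higher and 10.7% lower (22.7% in all). Over the 43 members 1 rose and 2 fell. The median log2 fold change was -0.10 over the regulatory genes, -0.20 over the core genes and 0.01 over all tested genes. By total gene counts these medians were 0.29, 0.20 and 0.41, so both particles stayed below the median gene under either scaling. By total gene counts 12 members were called higher and 0 lower. The share of all tested genes called under that scaling is not given here, and the 12% and 10.7% above belong to TMM. The knockout comparison rests on 2 DEN libraries that differed from each other: Psmd8 was at 177 and 261 CPM.

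Psmb7 was at 143, 143 and 152 CPM in the PBS knockout and 108 and 114 CPM in the DEN knockout livers. It fell by 0.39 ± 0.12 (adjusted p = 0.034), close to its value in wild type. Psmg3, a chaperone of the core, was at 23.5, 17.1 and 23.7 CPM and 14.6 and 14.1 CPM and fell by 0.58 ± 0.16 (adjusted p = 0.022), and 22.7% of its 50-base stretches are also part of another gene. Psmf1 was at 41.1, 52.3 and 56.6 CPM and 78.3 and 63.9 CPM and rose by 0.51 ± 0.16 (adjusted p = 0.04). None of the 3 calls held in every fit with 1 library left out. Psmb7 was lost without DENKO_141, DENKO_309, any of the 3 PBS knockout libraries or PBSWT_545 (highest adjusted p 0.158), under upper quartile scaling, by total gene counts and with no filter on low counts. Psmg3 was lost without DENKO_141, DENKO_309, PBSKO_154 or PBSKO_549 (0.147) and by total gene counts, and Psmf1 without DENKO_141, DENKO_309, PBSKO_154, PBSKO_544 or any PBS wild-type library (0.27). Fitted on the 5 knockout libraries alone, no member passed.

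Several regulatory genes that rose in wild type had values near 0 in the knockout. Psmd7 was at 98.2, 74.5 and 75.6 CPM under PBS and 85.2 and 85.3 CPM under DEN (0.04 ± 0.16), and Psmd13 at 107, 95.7 and 92.1 CPM and 98.4 and 95.9 CPM (-0.02 ± 0.12). Psmd4 had a log2 fold change of -0.03 ± 0.22 and Psmc2 of 0.01 ± 0.16. The largest regulatory values were those of Psmd8 (0.46 ± 0.17, adjusted p = 0.061) and Psmc6 (0.33 ± 0.12, adjusted p = 0.059). For these 2 genes both DEN knockout livers stood above all 3 PBS knockout livers, but neither passed.

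Without DEN, no member passed the test between genotypes. Knockout against wild type under PBS called 0 of 43 members, and 0.00754% of all tested genes, which is Trim21 alone. At an unadjusted p under 0.05 there were 508 of the 13255 tested genes, a share under 0.05, and DESeq2 and limma-voom called 0 members. The median log2 fold change was 0.10 over the regulatory genes, 0.09 over the core genes and 0.01 over all tested genes. All 17 regulatory values were above 0, up to 0.20, but the small shift rested on PBSKO_549, without which the medians were 0.02 and -0.01. In that library Psmd4 was at 184 CPM beside 113 and 93.6 CPM in the other PBS knockout livers.

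Under DEN the 2 knockout livers held less mRNA of the regulatory particle than the 3 wild-type livers. Summed levels were 1856 and 1875 CPM against 2342 to 2666 CPM. The library labelled heterozygous, with knockout-level Trim21 counts and outside this comparison, was at 2681 CPM. Of the 17 regulatory genes 8 were lower and none higher (47.1%), beside 9.85% of all tested genes lower and 12.2% higher (22.1% in all). Of 15 core genes 1 was lower, and of the 11 others 2, which makes 11 of 43 members. The median difference was -0.40 over the regulatory genes, -0.25 over the core genes and 0.01 over all tested genes. This comparison shares its 3 DEN wild-type libraries with that of DEN against PBS in wild type, so the values of both rest in part on the same measurements.

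**Figure D5:**
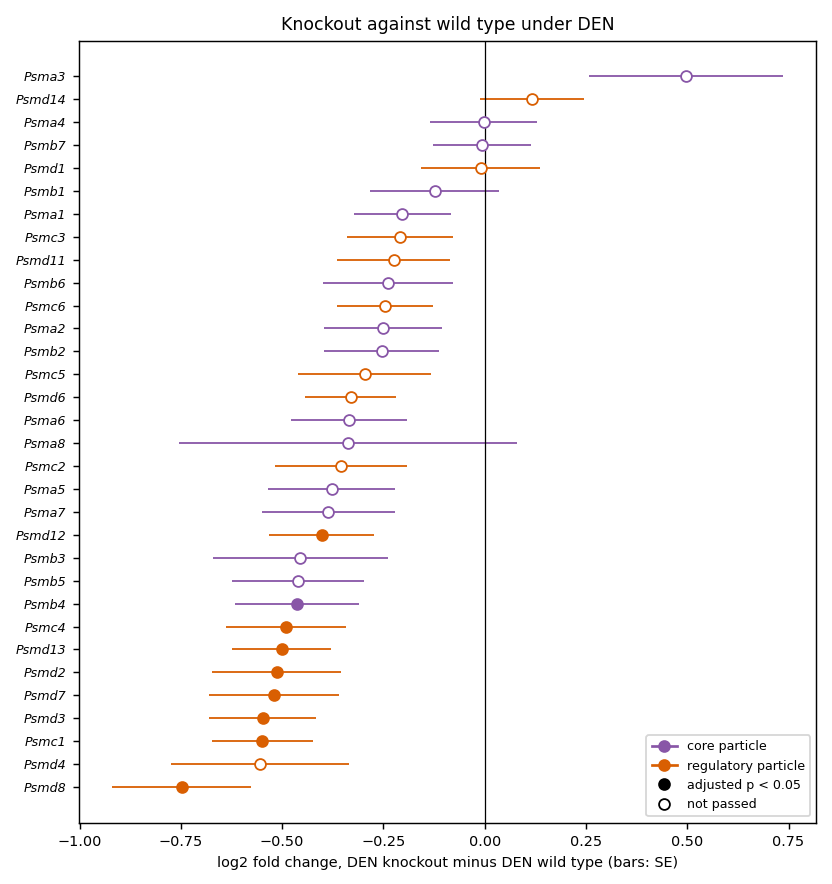
Log2 difference of DEN knockout minus DEN wild-type livers for each tested core (purple) and regulatory (orange) gene, ordered by size; bars are SE and filled points passed an adjusted p of 0.05. The 9 filled points, 8 regulatory genes and Psmb4, all lie below 0, with Psmd8 lowest at -0.75.

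Psmd8 was at 177 and 261 CPM in the DEN knockout livers against 326, 401 and 376 CPM in the DEN wild-type livers, a difference of -0.75 ± 0.17 (adjusted p = 0.0098). Psmc1 was at 92.5 and 95.5 CPM against 124, 138 and 151 CPM (-0.55 ± 0.12, adjusted p = 0.0095). Psmd3, a lid scaffold, was at 111 and 104 CPM against 141.04, 157 and 174 CPM (-0.55 ± 0.13, adjusted p = 0.012). In each of these genes both knockout livers lay below all 3 wild-type livers. The same held for Psmd7 (85.2 and 85.3 against 116, 110.4 and 140.8 CPM), Psmd13 (98.4 and 95.9 against 131, 145 and 137 CPM), Psmd2 (143 and 126 against 179, 177 and 221 CPM) and Psmc4 (135 and 128 against 173, 185 and 197 CPM). Their differences were -0.52 ± 0.16, -0.50 ± 0.12, -0.51 ± 0.16 and -0.49 ± 0.15. Psmd12, a lid subunit, was the smallest of the 8 differences, at 94.3 and 94.1 CPM against 121, 116 and 137 CPM (-0.40 ± 0.13, adjusted p = 0.04). Psmd14 was again apart, at 57.0 and 52.8 CPM in the knockout against 50.6, 55.1 and 46.4 CPM in the wild type (0.12 ± 0.13, adjusted p = 0.55), and it was the only regulatory gene with a value above 0.

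In the core, Psmb4 was at 193 and 236 CPM in the DEN knockout against 272, 331 and 286 CPM in the DEN wild type and was lower by 0.46 ± 0.15 on the log2 scale (adjusted p = 0.045). Psmb5 was at 32.6 and 35.8 CPM against 40.7, 50.6 and 49.8 CPM with a difference of the same size that did not pass (-0.46 ± 0.16, adjusted p = 0.057). Psmb6 (-0.24 ± 0.16) and Psmb7 (-0.01 ± 0.12) did not pass either. Of the other members, the chaperone Psmd9 was at 49.4 and 57.2 CPM against 75.6, 101 and 87.6 CPM (-0.72 ± 0.15, adjusted p = 0.0072). The cap Psme3 was at 72.6 and 63.7 CPM against 87.9, 81.2 and 112 CPM (-0.46 ± 0.15, adjusted p = 0.041), whereas Psme4, at 151 and 124 CPM, overlapped the wild type (0.14 ± 0.15). Psmf1, at 78.3 and 63.9 CPM, overlapped as well (-0.15 ± 0.16).

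These 11 differences rest on 2 knockout libraries. Without DENKO_141, which leaves DENKO_309 as a lone library assumed to vary like the other groups, none of the 11 passed, and without DENKO_309 the 3 that did were Psmc1, Psmd8 and Psmd9. Without DENWT_996, 5 of the 11 passed, and on the 5 DEN libraries alone 6 of the 11 did. No change of sign occurred among the 11 genes in any of the 11 fits: Psmd8 ran from -1.06 to -0.49 and Psmc1 from -0.62 to -0.48. Their highest adjusted p over these fits ran from 0.088 for Psmd3 to 0.333 for Psmb4. Marker lists also differed between these genotypes under DEN, where 12.2% of all tested genes were higher in the knockout. Of the lymphocyte markers 3 of 9 were higher (summed level 4.39 to 7.06 CPM against 1.81 to 2.34 CPM), of the Kupffer and macrophage markers 1 of 8 (295 to 345 CPM against 135.8 to 233 CPM, without overlap), and of the stellate and fibroblast markers 2 of 7 (246 to 265 CPM against 267 to 292 CPM). The 1 red cell marker tested, Alas2, was higher by 1.65 ± 0.22 on the log2 scale (list summed to 62.1 to 86.2 CPM against 16.1 to 28.2 CPM). The neutrophil and monocyte markers were mixed: Ly6c2 and Ccr2 were higher, while the median over the 7 tested was -0.56 (summed level 60.8 to 70.4 CPM against 33.4 to 92.1 CPM). No sinusoidal endothelial or bile duct marker passed. None of the 8 hepatocyte markers differed by the test, with summed levels of 98585.5 to 105250 CPM against 97060.9 to 131891 CPM. Their part in the differences was not tested.

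The test of the difference itself, an interaction that takes the wild-type response to DEN from the knockout response, called 1 member, the ATPase gene Psmc1, beside 6.58% of all tested genes (2.5% with a lower and 4.07% with a higher response in the knockout). Psmc1 was at 85.9, 79.3 and 87.8 CPM in the PBS knockout and 92.5 and 95.5 CPM in the DEN knockout livers, so that its response was 0.16 ± 0.12 in the knockout and 0.77 ± 0.11 in the wild type. The interaction was -0.61 ± 0.17 (adjusted p = 0.045). It was lost in 9 of the 11 fits with 1 library left out (all but those without DENWT_307 or PBSKO_544, highest adjusted p 0.197) and with no filter on low counts, with values from -0.68 to -0.54. Psmd13 (-0.56 ± 0.16, adjusted p = 0.058), Psmd8 (-0.76 ± 0.23, adjusted p = 0.061), Psmd9 (-0.69 ± 0.20, adjusted p = 0.061) and Psmd3 (-0.59 ± 0.18, adjusted p = 0.062) came next and did not pass. The median interaction was -0.50 over the regulatory genes, all 17 of which had values below 0, -0.43 over the core genes and 0.00 over all tested genes. DESeq2 called 9 members, all lower. The 6.58% of all tested genes is edgeR's share, and the share called by DESeq2 is not given here.

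The ratio of regulatory to core mRNA per kb, 0.800, 0.770 and 0.775 in the PBS knockout livers, was 0.915 in DENKO_141 and 0.794 in DENKO_309. DENKO_141 thus lay in the range of the DEN wild-type livers and DENKO_309 in that of the PBS livers.

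The library labelled heterozygous, which had knockout-level Trim21 counts, held high levels of regulatory particle mRNA. Psmd8 was at 468 CPM, Psmc1 at 169.9 CPM and Psmd9 at 93.0 CPM, above or inside the DEN wild-type range and above both DEN knockout livers. It exceeded the highest of the 6 PBS libraries at 13 of 17 regulatory genes (76.5%) and 7 of 15 core genes (46.7%), against 40.1% of all tested genes. Its level was nearer the DEN wild-type than the DEN knockout mean at 33 of 43 members (76.7%), close to the 74.9% of all tested genes. Psmb7, at 119 CPM, was below all PBS libraries, and Psme4, at 76.2 CPM, was below every other library. Being 1 library, it has no replicate check.

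The 5 genes left out by the symbol rule went against the regulatory genes. The immunoproteasome subunits Psmb8, Psmb9 and Psmb10 replace the 3 active-site subunits in immune cells and under interferon, and Psme1 and Psme2 form the matching cap. In wild type all 5 fell with DEN. Psmb8 went from 52.4, 47.7 and 56.7 CPM to 15.5, 14.4 and 12.3 CPM (-1.90 ± 0.13, adjusted p = 2.4e-07), Psmb10 from 59.1, 65.7 and 57.9 to 16.1, 11.6 and 15.8 CPM (-2.07 ± 0.18) and Psmb9 from 33.1, 31.0 and 30.7 to 13.03, 11.2 and 8.94 CPM (-1.52 ± 0.15). Psme1 fell by 0.98 ± 0.18 and Psme2 by 0.69 ± 0.16, the latter call lost by total gene counts. Per kb, the 3 subunits made up 20.7% to 22.0% of all active-site transcripts in the PBS wild-type livers and 5.44% to 7.60% in the DEN wild-type livers, a share that does not depend on scaling.

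In the knockout the fall was smaller. Psmb8 was at 44.0, 46.9 and 51.4 CPM under PBS and 33.8 and 27.3 CPM under DEN (-0.63 ± 0.15, adjusted p = 0.0075), Psmb10 at 48.1, 49.8 and 65.9 and 35.0 and 24.4 CPM (-0.88 ± 0.19) and Psmb9 at 24.3, 22.1 and 26.7 and 22.2 and 19.1 CPM (-0.24 ± 0.16, adjusted p = 0.31). Without DENKO_309 neither Psmb8 (adjusted p = 0.122) nor Psmb10 (0.107) passed, and both calls were also lost by total gene counts. The share of active-site transcripts was 17.7% to 19.1% under PBS and 16.1% and 11.7% under DEN. Under DEN, Psmb8, Psmb9 and Psmb10 were higher in the knockout than in the wild type, by 1.12 ± 0.14, 0.90 ± 0.16 and 1.03 ± 0.19, though without DENKO_141 Psmb9 (adjusted p = 0.064) and Psmb10 (0.088) did not pass. Their interactions were 1.26 ± 0.19, 1.28 ± 0.21 and 1.19 ± 0.26 (adjusted p = 0.008, 0.01 and 0.024). Without DENKO_141 these interactions did not pass for Psmb8 (adjusted p = 0.06) and Psmb9 (0.083), and that of Psmb10 did not pass without DENKO_141, PBSKO_154 or PBSWT_542 (at most 0.162). In the library labelled heterozygous the share was 6.63%, at the level of the DEN wild-type livers. The lymphocyte markers given above were lower in DEN than in PBS wild-type livers at 6 of 9 genes and higher in the DEN knockout than in the DEN wild type at 3 of 9, and their part in these values was not tested.

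Of the 12 cofactor and assembly genes tested, 3 rose and 2 fell in wild type under DEN, beside 29.2% and 26.7% of all tested genes. Zfand2a, which encodes a stress-induced binding partner of the proteasome, rose from 16.2, 11.9 and 14.3 CPM to 77.7, 71.6 and 103 CPM (2.57 ± 0.27, adjusted p = 1.6e-05). In the knockout it was at 24.0, 21.6 and 13.1 CPM under PBS and 24.8 and 43.7 CPM under DEN (0.81 ± 0.28, adjusted p = 0.062), and the interaction was -1.76 ± 0.39 (adjusted p = 0.03). The interaction did not pass without DENKO_141, DENWT_996, PBSKO_154, PBSKO_544, PBSWT_542 or PBSWT_545 (at most 0.154). Zfand5, a further ubiquitin-binding partner, rose by 0.67 ± 0.11 in wild type and 0.51 ± 0.12 in the knockout, there except without DENKO_309 (adjusted p = 0.081). Txnl1, a thioredoxin of the regulatory particle, rose by 0.33 ± 0.12 in wild type, a call lost without DENWT_995, DENWT_996, PBSWT_541 or PBSWT_542 (at most 0.112). Pomp, the maturation factor of the core, was at 153.8, 171 and 183 CPM under PBS and 106, 124 and 93.8 CPM under DEN and fell by 0.65 ± 0.14 (adjusted p = 0.0012), a call lost by total gene counts. Fbxo7, an F-box protein that binds PI31, fell by 0.29 ± 0.12, a call lost in 7 of the 11 fits (without DENKO_141, DENKO_309, DENWT_307, DENWT_996, PBSKO_544, PBSWT_541 or PBSWT_542, at most 0.144) and under upper quartile scaling, total gene counts, no filter on low counts and the fit of only the groups compared. The ubiquitin receptor Adrm1, at 13.5, 13.2 and 9.69 CPM and 14.96, 14.6 and 20.2 CPM, did not pass (0.45 ± 0.20, adjusted p = 0.074), nor did the deubiquitinases Usp14 (-0.14 ± 0.11) and Uchl5 (0.01 ± 0.11) that dock on the regulatory particle.

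Of 12 tested genes that control proteasome transcription, 3 rose and 3 fell in wild type under DEN, near the shares of all tested genes (29.2% and 26.7%). The small MAF partners Maff and Mafk rose by 2.64 ± 0.40 and 2.10 ± 0.21, and the NRF1 cofactor Hcfc1 by 0.56 ± 0.14. Nfe2l1 was at 156, 128 and 149.5 CPM under PBS and 119, 111 and 116 CPM under DEN and fell by 0.32 ± 0.13 (adjusted p = 0.047), a call that was lost in 7 of the 11 fits with 1 library left out (without DENKO_141, DENKO_309, any DEN wild-type library, PBSWT_541 or PBSWT_545, at most 0.15), under upper quartile scaling and with no filter on low counts, and whose sign was positive, at 0.16, by total gene counts. Nfe2l2 was at 80.4, 78.2 and 84.4 CPM and 99.7, 88.0 and 114 CPM in wild type (0.31 ± 0.15, adjusted p = 0.092). In the knockout Nfe2l2 went from 63.3, 79.3 and 51.9 CPM to 149 and 136.2 CPM, a rise of 1.13 ± 0.16 (adjusted p = 0.00038). Its interaction was 0.82 ± 0.22 (adjusted p = 0.045), which did not pass in 10 of the 11 fits with 1 library left out, all but that without PBSKO_544 (at most 0.199), or by total gene counts. Ddi2, the protease that releases NRF1, varied widely under PBS, at 40.4, 16.1 and 25.7 CPM, and did not pass (0.53 ± 0.33, adjusted p = 0.2).

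Of 16 tested genes for ubiquitin supply, shuttling and the VCP unfoldase, 6 rose and 3 fell in wild type under DEN, beside 29.2% and 26.7% of all tested genes. Ubb, a polyubiquitin gene, rose from 115, 98.1 and 90.9 CPM to 142, 139 and 140.8 CPM (0.48 ± 0.14, adjusted p = 0.01), a call lost without PBSWT_545 (0.057). Vcp, whose protein unfolds ubiquitylated substrates upstream of the proteasome, was at 92.6, 87.2 and 84.1 CPM and 59.3, 63.7 and 67.7 CPM in wild type. It fell by 0.47 ± 0.15 (adjusted p = 0.014), lost without DENWT_307 (0.054) and slightly above 0, at 0.019, by total gene counts. Its cofactor Ufd1l rose by 0.60 ± 0.10 (adjusted p = 0.00033). In the knockout, 0 of the 16 genes rose and 2 fell (Vcp by 0.53 ± 0.16, Faf1 by 0.75 ± 0.16). Of all tested genes 12% rose and 10.7% fell there. Vcp was lost there without DENKO_309, PBSKO_154 or PBSKO_549 (at most 0.348), Faf1 without DENKO_309 (0.091), and both by total gene counts. Vcp was also lost on the 5 knockout libraries alone.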

How the data were processed

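Each library's table, as deposited, lists unnormalized counts of reads by gene symbol. TopHat2, HTSeq, bcl2fastq and the mm9 build are named in the submitters' processing notes. Their versions, the annotation and the strand setting were not given in the sources used here. The 5 tally lines that name no gene were left out. They held 71.6% to 78.7% of listed counts in the PBS libraries and 61.4% to 69.6% in the DEN libraries, without overlap. The part of this difference in the DEN against PBS values was not tested.

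Counts were tested in R 4.3.3 with edgeR 4.0.16 (TMM, filterByExpr, robust quasi-likelihood F test) in 1 fit of 11 libraries in 4 groups. The library labelled heterozygous, single of its kind, was left out of the fit and scaled by TMM with the others. In each of 5 comparisons p-values received the Benjamini-Hochberg adjustment over 13255 genes; calls needed an adjusted value under 0.05. The standard error is the absolute log2 fold change over the root of F. DESeq2 1.42.0, limma-voom (limma 3.58.1), other scalings, no filter, fewer groups and leaving out each library were alternatives. The code was tested on simulated data. Replicates differed by a chi-square of 23.3 to 78.6 per degree of freedom, so none was a copy. Exon lengths came from GENCODE M21 (GRCm38).

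The text names Trim21, all members by role, the 3 largest called changes in each direction per comparison and particle, every member called between genotypes, and preset genes of the lists, of which 1 is not reported here. Members and lists were chosen with earlier results of these data known.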

Additional observations from a re-analysis of the deposited data

Results flagged for a closer look

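The response to DEN differed between the genotypes for 6 genes by the interaction test of edgeR, each with an adjusted p under 0.05: Psmc1 (-0.61, knockout minus wild type, on the log2 scale), Zfand2a (-1.76), Nfe2l2 (0.82), Psmb8 (1.26), Psmb9 (1.28) and Psmb10 (1.19). Psmc1 was the single constitutive subunit gene among them. Leaving out DENKO_141 ended the call for each of the 6.

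In the DEN library labelled heterozygous, which no comparison uses, 13 of the 17 regulatory genes were above the highest of the 6 PBS libraries (76.5%, beside 40.1% of all tested genes). No group held 4 or more libraries, so single libraries were not tested for standing apart.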

How the results depend on the processing

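No paired analysis was possible because no number in the titles occurs in more than 1 group. For DEN in wild type 25 members were called. Other scalings, filters and tests called 23 to 36, of which 23 to 25 were among the 25, and fits with 1 library left out called 15 to 26, of which 14 to 25 were. The cause of the changes below was not tested. In the knockout 3 members were called; the number was 12 by total gene counts (1 of the 3 among them), 7 by DESeq2 (all 3), 0 with only the groups compared and 0 to 3 with 1 library left out. Upper quartile scaling called 3 higher and 1 lower there, DESeq2 3 and 4, and leaving out PBSKO_549 2 and 0. Between genotypes under DEN 11 members were called, against 7 with only the groups compared (6 of the 11) and 0 to 15 with 1 library left out (0 to 11 of the 11); under PBS the count was 0 in every setting. The interaction called 1 member, against 3 by total gene counts, 0 without a filter, 9 by DESeq2 and 0 to 3 with 1 library left out. Signs for DEN in wild type turned by total gene counts for Psmb7 (0.12), Psmg1 (0.15), Nfe2l1 (0.16) and Vcp (0.019). Depth limits Psma8, Psmb11 and Psmc3ip.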
